A study of Mus musculus with 63 samples.

Results

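Hearts of NOD mice were set against hearts of WSB mice across every gene of the deposited count table. Both strains are founders of the Diversity Outbred mouse population, and the comparison used the 8 libraries labelled NOD and the 8 labelled WSB, which are 16 of the 63 heart libraries of the series. The other 47 libraries came from 6 further founder strains, labelled 129, AJ, B6, Cast, NZO and PWK. Mice of all strains, NOD and WSB alike, were on one diet rich in fat and sugar, given as 45% fat, so no library comes from a mouse on another diet. RNA was taken from pulverised frozen heart, and polyadenylated RNA was sequenced. The labels name the strain, the tissue and the diet, and they give neither sex nor age. The sex-linked genes were balanced, with the X-inactivation transcript Xist above 10 CPM in 4 NOD and 4 WSB libraries and the Y-linked genes Ddx3y, Eif2s3y, Kdm5d and Uty above it in 4 and 4. CPM is the count of a gene per 1000000 counts of its library, whose total was first scaled by TMM, a factor that balances the composition of the libraries. The labels do not say outright that each library came from its own mouse. The p-values measure only the spread between libraries, which may be technical. For genes, that spread was estimated within strains over all 63 libraries.

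NOD is an inbred line known for spontaneous autoimmune diabetes, in which lymphocytes enter the pancreatic islets and other organs, and it carries its own haplotype of the major histocompatibility complex (MHC). WSB is a line derived from wild house mice and is known for resistance to diet-induced obesity. In the heart, MHC class I molecules are made by most cells and class II molecules mainly by antigen-presenting cells. Immediate early genes, many of which code for transcription factors, respond within minutes to stimulation, and heat shock proteins bind unfolded proteins.

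Library totals were 32054830 to 35509643 counts for NOD and 24787743 to 30955103 counts for WSB. Heart muscle genes were abundant in all 16 libraries, with the 20 genes of a list of cardiomyocyte genes summing to 84032 to 102360.0 CPM in NOD hearts and 63415 to 101940.0 CPM in WSB hearts. One WSB library, WSB_1, stood apart. Its correlation with the median of its own strain was 0.945, against 0.983 to 0.991 for the NOD libraries and 0.988 to 0.990 for the other 7 WSB libraries. In WSB_1, 2440 genes lay at least 2-fold above and 2044 at least 2-fold below the strain's median, and its Myh6, the adult cardiac myosin, was at 13806 CPM, against 31417 to 36291 CPM in the other WSB libraries. The results below are for all 16 libraries; values without WSB_1 are added beside the counts and genes that it moved most.

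**Figure D1:**
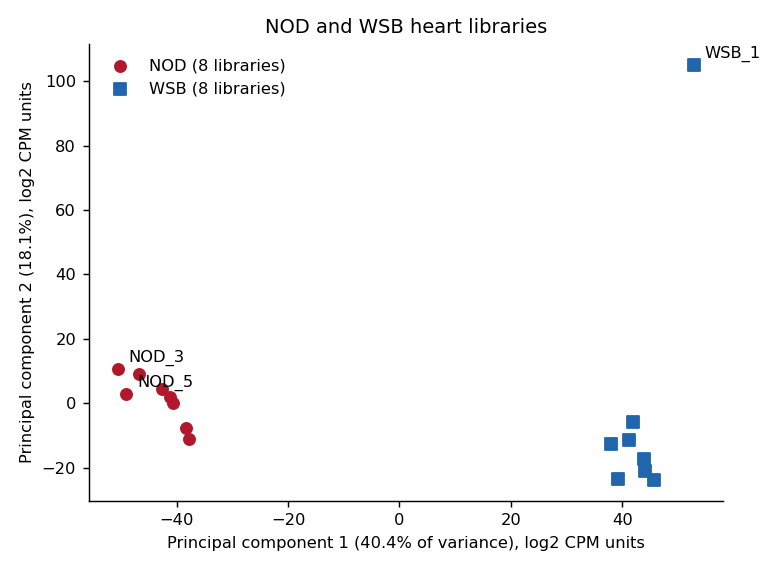
The 16 libraries by their first and second principal components of log2 CPM, with NOD as red circles and WSB as blue squares. The first component (40.4% of the variance) separates the strains, and the second (18.1%) sets WSB_1 apart from the other 15 libraries.

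Of 16425 genes tested, 6001 (36.5%) differed between NOD and WSB hearts at an adjusted p of at most 0.05 in edgeR's quasi-likelihood test with Benjamini-Hochberg adjustment, the rule meant wherever a gene is said to have risen, fallen or been called. Of these, 2983 (18.2%) were higher and 3018 (18.4%) lower in NOD. The changes were mostly small, with a median absolute log2 fold change of 0.52 among called genes, and 955 genes (5.81%) were called and at least 2-fold higher in NOD while 594 (3.62%) were at least 2-fold lower. In 946 genes (5.76%) that were called higher, every NOD library lay above every WSB library, and in 600 genes (3.65%) called lower, every NOD library lay below. Without WSB_1 the counts were 6304 of 16375 genes (38.5%), of which 3268 (20%) were higher and 3036 (18.5%) lower. At least 2-fold changes then numbered 1042 higher (6.36%) and 485 lower (2.96%), and 1234 genes (7.54%) were called higher and 1069 (6.53%) lower without overlap. Of the genes called in both fits, 5059 had the same direction and 1 the opposite one; 941 genes were called with all libraries alone and 1244 without WSB_1 alone. NOD against WSB ranked 12 of 28 strain pairs, counted from the pair with the fewest called genes.

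Among genes called without overlap between the strains, with no near-identical copy and with an average level of 2 or more on the log2 CPM scale, the largest increase was that of Ogdhl (chr14:32322019-32347820, plus strand), which codes for a relative of the oxoglutarate dehydrogenase of the TCA cycle. Ogdhl had 92.2, 119 and 148 CPM in NOD hearts (lowest, median, highest), against 1.78, 3.42 and 6.81 CPM in WSB hearts. All 8 NOD libraries lay above all WSB libraries, and the log2 fold change was 4.98 ± 0.21 (standard error; adjusted p = 6.85e-29). H2-D1 (chr17:35262730-35267499, plus strand), a classical MHC class I heavy chain, had 83.6, 105 and 149 CPM in NOD hearts, against 6.36, 6.99 and 26.3 CPM in WSB hearts. The highest WSB library was WSB_1, and the groups did not overlap, with a log2 fold change of 3.49 ± 0.21 (adjusted p = 5.43e-21) and of 3.93 without WSB_1. Hint3, a histidine triad nucleotide-binding protein, had 17.2, 20.5 and 21.1 CPM in NOD hearts, against 1.67, 2.01 and 2.89 CPM in WSB hearts. The log2 fold change was 3.23 ± 0.080. Map1a (chr2:121289600-121310832, plus strand), a microtubule-associated protein best known from neurons, had 137, 160.4 and 180.5 CPM in NOD hearts, against 15.5, 18.1 and 22.9 CPM in WSB hearts, a log2 fold change of 3.09 ± 0.10. Next in size were Smim3, a small membrane protein, at 2.79 ± 0.16; Tmprss13, a membrane serine protease, at 2.59 ± 0.29; Pla2g4e, a cytosolic phospholipase A2, at 2.56 ± 0.16; and C1qtnf6, a secreted C1q and TNF related protein, at 2.54 ± 0.14. By the rule, every NOD library lay above every WSB library in each of these genes.

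The largest decrease under the same rule was that of Abca4 (chr3:122044443-122180123, plus strand), a retinoid transporter best known from photoreceptors. Abca4 had 1.02, 1.69 and 2.16 CPM in NOD hearts (lowest, median, highest), against 20.7, 24.2 and 29.0 CPM in WSB hearts. The log2 fold change was -3.98 ± 0.15 (adjusted p = 4.66e-33) and the groups did not overlap. Ano10 (chr9:122175879-122294374, minus strand), a membrane protein of the anoctamin family, had 26.6, 31.2 and 33.97 CPM in NOD hearts, against 164, 191 and 306 CPM in WSB hearts, with WSB_1 the highest, and a log2 fold change of -2.71 ± 0.081. Hopx (chr5:77086988-77115121, minus strand), a homeodomain cofactor of cardiac development, had 45.9, 56.8 and 60.9 CPM in NOD hearts, against 146, 282 and 319 CPM in WSB hearts, with WSB_1 the lowest WSB library. Even that library lay above all NOD libraries, and the log2 fold change was -2.29 ± 0.11. Hrasls, a phospholipase and acyltransferase, had 1.90, 3.20 and 3.42 CPM in NOD hearts, against 13.6, 19.7 and 23.7 CPM in WSB hearts (-2.69 ± 0.10). Cit, the citron kinase of cell division, fell by a similar amount at -2.70, followed by Art4, an ADP-ribosyltransferase that carries the Dombrock blood group in humans, at -2.22; Cdh19, a cadherin of the Schwann cell lineage, at -1.96; and Dixdc1, a DIX domain protein of Wnt signalling, at -1.74.

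Among the abundant genes under the same limits on overlap and copies, with an average level of 6 or more on the log2 CPM scale, the largest increases were those of Ndrg4, an NDRG family protein of heart and brain, at 1.58 ± 0.13, Entpd5, a nucleotide phosphatase of the endoplasmic reticulum, at 1.15 ± 0.12, and Creg1, a secreted glycoprotein, at 1.05 ± 0.080. Aldh4a1, a mitochondrial enzyme of proline breakdown, was at 1.03 ± 0.12, the microtubule-binding Mtus2 at 1.01 ± 0.10, and Rragd, a Rag GTPase of amino acid sensing, at 0.98 ± 0.12. Ndrg4 had 157, 199.6 and 248 CPM in NOD hearts, against 33.7, 62.6 and 105 CPM in WSB hearts. Beside Ano10 and Hopx, the abundant genes that fell most within these limits were Ces1d, a carboxylesterase that splits lipid esters, at -1.12 ± 0.15, Mrpl3 of the mitochondrial ribosome at -1.06 ± 0.090, the laminin receptor Bcam at -1.04 ± 0.065 and the flavin monooxygenase Fmo2 at -1.04 ± 0.19. Bcam had 107, 121 and 136 CPM in NOD hearts, against 238, 247 and 283 CPM in WSB hearts. All 26 genes named by these rules kept their direction and their call without WSB_1.

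**Figure D2:**
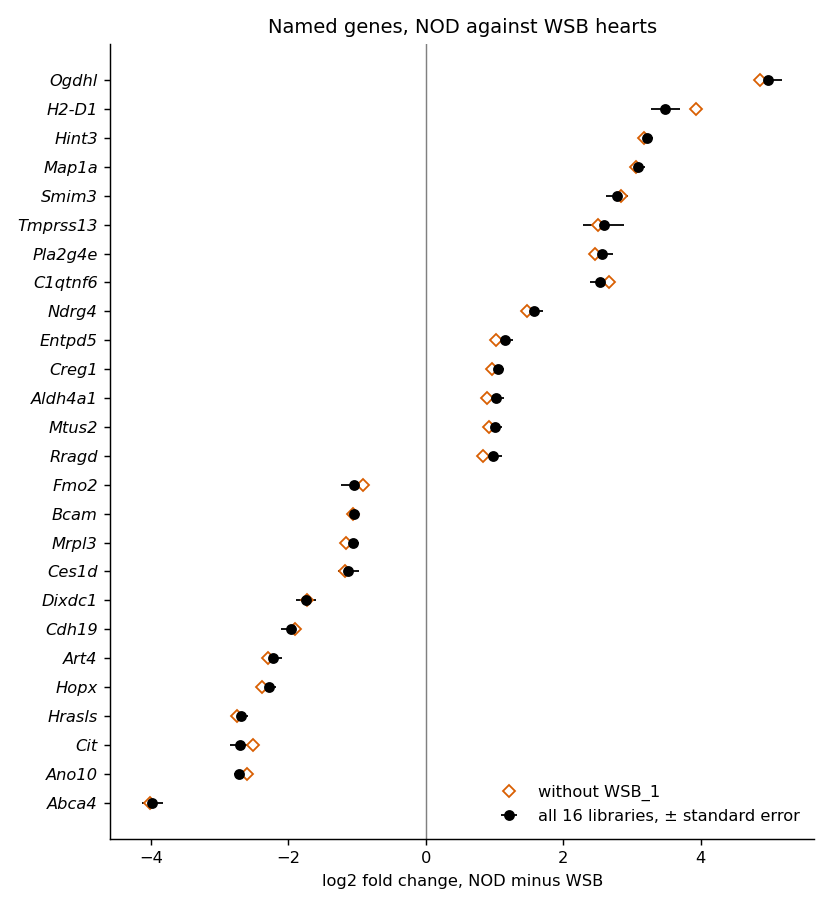
Log2 fold changes, NOD minus WSB, of the 26 genes with the largest differences under the 2 rules on level, with all 16 libraries (black, bars are standard errors) and without WSB_1 (open diamonds). H2-D1 moves most when WSB_1 is left out, to 3.93.

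Set against the 6 other strains, WSB stood outside more often than NOD. Of the 6001 called genes, the WSB mean log2 CPM fell outside the range of the 6 other strain means and the NOD mean inside it for 2113 (35.2%), and the NOD mean alone fell outside for 1016 (16.9%). In 421 genes (7.02%) both lay outside, and in 2451 (40.8%) both lay inside. WSB also lay outside alone more often among all tested genes, in 3463 of 16425 (21.1%) against 1800 (11.0%) for NOD. Without WSB_1 the called counts were 2062 for WSB alone and 1106 for NOD alone. In a fit of each strain against the mean of the 6 others, 5425 genes (33.0%) were called for NOD and 7389 (45.0%) for WSB. The 2 contrasts share the 6 strains they are set against.

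The genes with the largest differences show both patterns. Hint3 averaged 19.6 ± 1.60 CPM in NOD and 2.08 ± 0.400 CPM in WSB (mean ± SD, n = 8 each), while the means of the other strains ran from 15.9 CPM in NZO to 22.3 CPM in AJ, so that WSB alone was low. Ano10 averaged 30.9 ± 2.90 CPM in NOD and 203 ± 45.4 CPM in WSB, with the other strains from 17.3 CPM in Cast to 152 CPM in PWK. Here WSB alone was above the range. Map1a averaged 158 ± 14.2 CPM in NOD and 18.6 ± 2.73 CPM in WSB, with the other strains from 13.7 CPM in B6 to 32.9 CPM in NZO, so that NOD alone was high. Hrasls averaged 3.02 ± 0.508 CPM in NOD and 19.5 ± 3.22 CPM in WSB, with the other strains from 17.2 CPM in Cast to 30.1 CPM in AJ, and NOD alone was low. Ogdhl was inside the range in both strains, since the other means ran from 0.859 CPM in PWK to 135 CPM in NZO. In Hopx NOD lay below and WSB above the others, whose means ran from 93.1 CPM in AJ to 227 CPM in PWK. With all libraries, 14 of the 26 genes had WSB alone outside, 6 NOD alone, 4 both and 2 neither. These positions are by mean log2 CPM. On the plain mean CPM, WSB was inside the range for Entpd5 and Aldh4a1 even with all libraries, at 73.0 and 48.0 CPM. The lowest other means were 71.9 and 46.7 CPM, and without WSB_1 the WSB means were 79.4 and 52.6 CPM. Fmo2 averaged 116 CPM in WSB with all libraries, above the highest other mean of 109 CPM. Without WSB_1 it was inside the range, at 106 CPM.

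**Figure D3:**
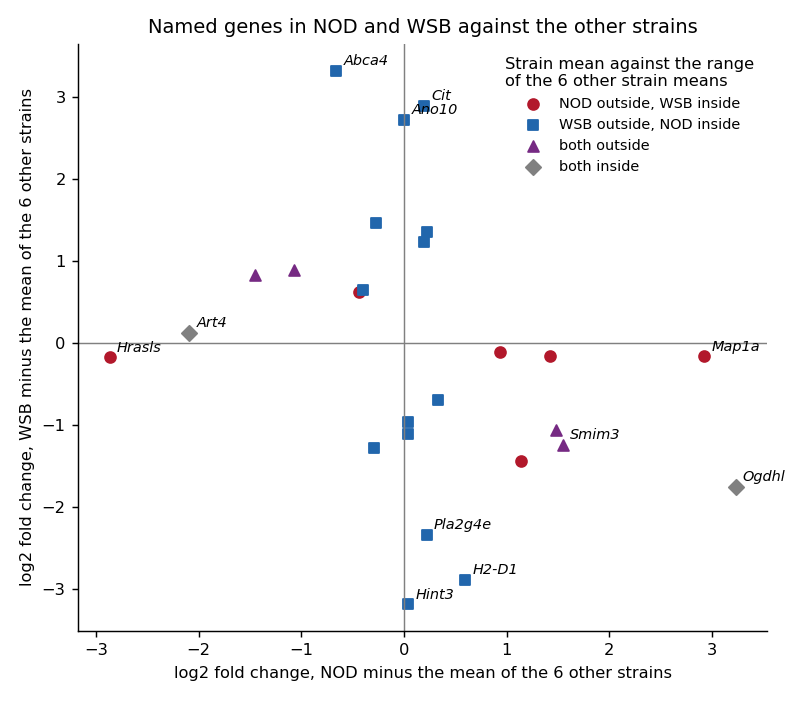
Each of the 26 genes by its log2 fold change in NOD (horizontal) and in WSB (vertical) against the mean of the 6 other strains, with symbols for which strain mean lies outside the range of the other 6. Positions are for all libraries, WSB_1 included. Points near the vertical line, such as Hint3 and Ano10, are genes where WSB alone was outside; Map1a and Hrasls lie near the horizontal line.

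B and plasma cell markers had the largest median of the gene lists with at least 5 tested members. Of 14 B and plasma cell markers, 13 rose in NOD and none fell. The median log2 fold change over the 14 was 3.18, beside -0.01 over all tested genes. Of all tested genes 18.2% were called higher and 18.4% lower, and 20% and 18.5% without WSB_1. These shares stand beside the counts of every list below. Igkc, the kappa light chain constant gene, had 0.208, 7.45 and 61.7 CPM in NOD hearts, against 0.0725, 0.340 and 1.92 CPM in WSB hearts (4.15 ± 0.89, adjusted p = 0.000150). Jchain, which joins antibodies of plasma cells, had 0.203, 3.08 and 23.6 CPM in NOD hearts, against 0.0363, 0.109 and 1.51 CPM in WSB hearts (3.69 ± 0.85). The groups overlapped in both of these genes, and the NOD libraries differed widely. The summed CPM of the 14 markers was 305 in NOD_3, between 5.89 and 64.9 in the other 7 NOD libraries, and 2.50 to 15.5 in the WSB libraries. NOD_2, NOD_6 and NOD_7 lay within the range of the WSB sums. Without NOD_3, 11 of the 14 still rose, and the log2 fold changes were 3.01 for Igkc and 2.68 for Jchain. More cells of a type and more RNA per cell cannot be told apart in whole tissue.

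T and NK cell markers rested on another library. Of 20 listed, 10 passed the filter on low counts, and of these 5 rose and 1 fell. Cd4, the co-receptor of helper T cells, was at 24.7 CPM in NOD_5 and at 0.572 to 2.93 CPM in the other NOD libraries, against 0 to 0.290 CPM in WSB hearts, so that all NOD libraries lay above WSB. Lck, a T cell kinase, was at 33.1 CPM in NOD_5, at 0 to 3.23 CPM in the other NOD libraries and at 0.0363 to 0.317 CPM in WSB hearts. Cd3g of the T cell receptor complex was at 8.99 CPM in NOD_5, at 0 to 1.23 CPM in the other NOD libraries and at 0.0629 to 0.279 CPM in WSB hearts. In both genes NOD_5 was the highest library and NOD_3 the next, and most of the others lay within the WSB range. Cd8a, of killer T cells, which did not pass the filter and was chosen after its values were seen, reached 40.9 CPM in its highest NOD library and 0.119 CPM in its highest WSB library. Without NOD_5, 2 of the markers rose and 3 fell, the log2 fold change of Cd4 was 3.07 and that of Lck 1.90, and Cd3g was no longer called (1.11, adjusted p = 0.0814). Thy1, a surface protein of T cells and other cells, was the member that fell (-0.63 ± 0.26); its log2 fold change was -1.30 without NOD_5, and it was not called without WSB_1 or without NOD_3.

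**Figure D4:**
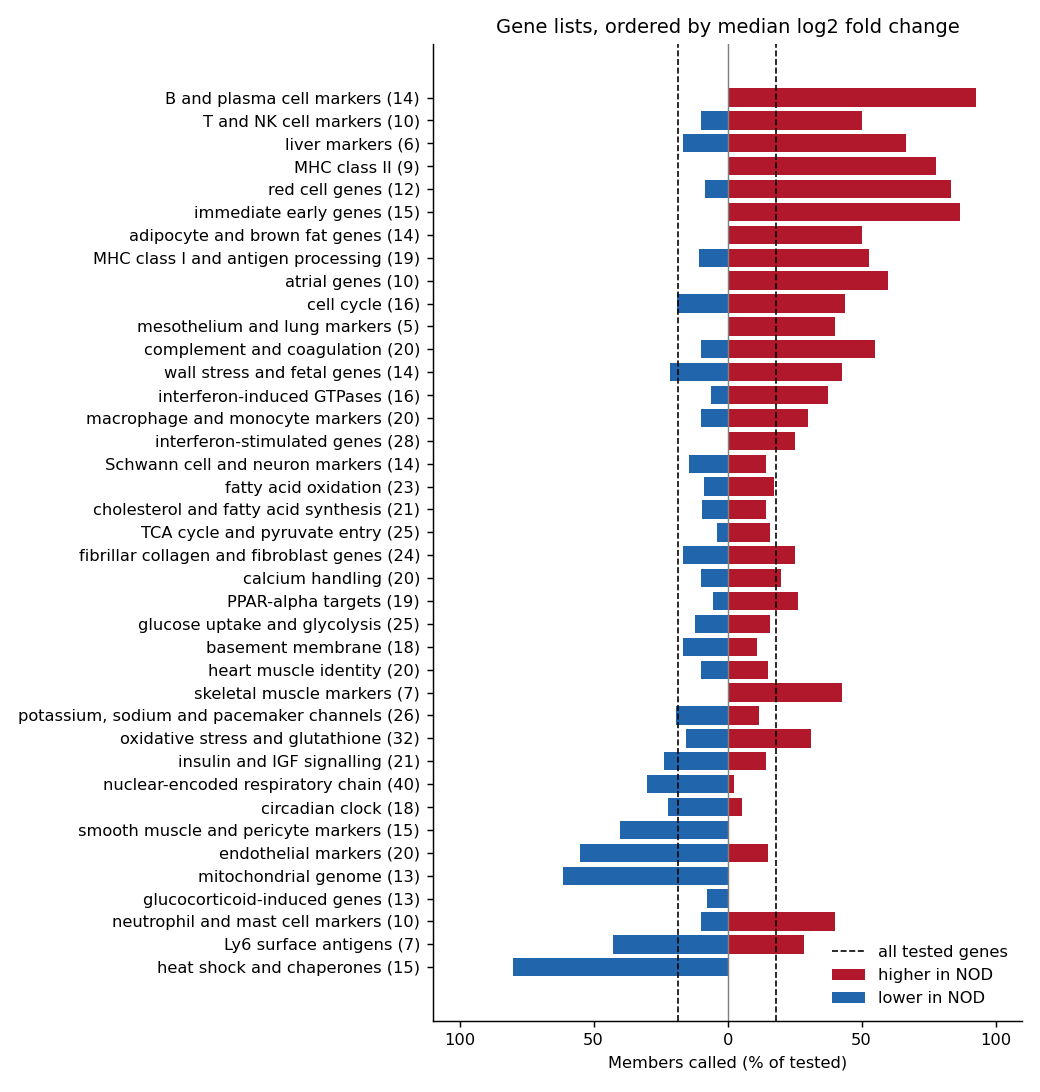
Share of each list's tested members called higher in NOD (red, right) and lower in NOD (blue, left), for the lists with at least 5 tested members, ordered by median log2 fold change with the number tested in brackets. Dashed lines give the shares over all tested genes, 18.2% higher and 18.4% lower.

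Of 9 tested MHC class II genes, 7 rose in NOD and none fell, with a median of 1.27. H2-Eb1, the beta chain of the I-E molecule, had 4.70, 7.52 and 28.6 CPM in NOD hearts, against 0.101, 0.193 and 0.436 CPM in WSB hearts. The groups were far apart, with a log2 fold change of 5.57 ± 0.45 (adjusted p = 8.73e-16); the means of the other strains ran from 0.562 CPM in PWK to 28.2 CPM in B6, and WSB lay below them. H2-Ob, which modulates peptide loading in B cells, had 0.297, 1.05 and 5.99 CPM in NOD hearts, against 0.0363, 0.210 and 0.335 CPM in WSB hearts (3.05 ± 0.46), and only WSB_1 overlapped with NOD. H2-DMb2, a peptide-loading chain, had 0.0580, 0.318 and 6.77 CPM in NOD hearts, against 0, 0.131 and 0.185 CPM in WSB hearts (3.45 ± 0.63, and 2.12 without NOD_3); summed with its near-identical copy H2-DMb1 the value was 1.70 (adjusted p = 0.000169). NOD_3 had the highest class II sum, at 208 CPM, against 30.02 to 103 CPM in the other NOD libraries and 27.7 to 50.1 CPM in WSB. Without NOD_3, 5 of the 9 rose, and without NOD_5 6 rose. NOD_3 also had the highest B cell sum, and its part in the class II result beyond this was not tested.

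Of 19 genes of MHC class I and antigen processing, 10 rose and 2 fell, with a median of 0.54. Beside H2-D1, the class Ib genes H2-Q6 and H2-Q7 were the largest, at 4.22 ± 0.45 and 3.13 ± 0.42. Both have near-identical copies. H2-Q6 summed with H2-Q7 was at 3.50, and H2-Q7 summed with H2-Q5 at 2.94 (adjusted p = 1.65e-10 and 2.14e-08 in edgeR). Whether reads were split between the copies differently in the 2 strains was not tested. H2-Q6 had 3.39, 5.10 and 12.01 CPM in NOD hearts, against 0.0741, 0.232 and 0.864 CPM in WSB hearts, with no overlap. Both members that fell belong to the T region. H2-T22 had 0.110, 0.574 and 1.26 CPM in NOD hearts, against 8.50, 11.9 and 18.01 CPM in WSB hearts (-4.28 ± 0.21). Summed with its near-identical copies, H2-T10 among them, the log2 fold change was only -0.47 (adjusted p = 0.0140). Without WSB_1 this sum was at -0.37 and not called (adjusted p = 0.0567). H2-T23, which codes for Qa-1, a ligand of NK cell receptors, was at -0.73 ± 0.20, and at -0.41 without WSB_1. Summed with its copies it was at -0.68 (adjusted p = 0.00272), and without WSB_1 at -0.38 and not called (adjusted p = 0.0563). WSB_1 had the highest class I sum among the WSB libraries, at 623 CPM against 311 to 341 CPM in the other 7 and 454 to 702 CPM in NOD, and without it 13 of the 19 rose.

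Of 28 interferon-stimulated genes, many of which serve antiviral defence, 7 rose and none fell, and without WSB_1 13 rose. That library had the highest sum of the list, 266 CPM, against 181 to 252 CPM in NOD and 161 to 193 CPM in the other WSB libraries. Without NOD_3, and likewise without NOD_5, 5 rose. Cxcl10, a chemokine that draws T cells, had 0.0838, 0.312 and 1.24 CPM in NOD hearts, against 0, 0.0714 and 0.223 CPM in WSB hearts (2.24 ± 0.56, adjusted p = 0.00103), with overlap at these low levels. Mx1 was at 1.98 ± 0.43 and the nucleic acid sensor Zbp1 at 1.58 ± 0.53, which was not called without NOD_3 or without NOD_5. Of 16 interferon-induced GTPases, which act on the vacuoles of intracellular pathogens, 6 rose and 1 fell. Tgtp1 rose at 5.82 ± 0.65, or 2.46 when summed with its copy Tgtp2, and Gbp3 at 1.24 ± 0.27. Gbp8 fell, with 0.0870, 0.305 and 5.70 CPM in NOD hearts, against 3.03, 3.74 and 7.56 CPM in WSB hearts (-2.04 ± 0.56). NOD_5 held the highest NOD value, and the other 7 NOD libraries lay below all WSB libraries; without NOD_5 the log2 fold change was -3.63.

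The promoter of Cxcl10 is shown because it holds the interferon-stimulated response element, searched for as TTTC, any 2 bases and TTTC on either strand. This motif was present in 1131 of 32851 RefSeq promoter windows of 300 bases (3.44%), and in 1079 of 27025 genes with a window. Among the interferon-stimulated genes it was present in 14 of 22 windows, and in 13 of the 19 genes with a window. All windows are of the reference build, and NOD and WSB sequences were not read. Each window runs from 250 bases before to 50 bases after the start of transcription. The window of Cxcl10 (chr5:92348840-92349139, minus strand, GRCm38.p6) is printed in the direction of transcription, with the match in capitals.
Cxcl10: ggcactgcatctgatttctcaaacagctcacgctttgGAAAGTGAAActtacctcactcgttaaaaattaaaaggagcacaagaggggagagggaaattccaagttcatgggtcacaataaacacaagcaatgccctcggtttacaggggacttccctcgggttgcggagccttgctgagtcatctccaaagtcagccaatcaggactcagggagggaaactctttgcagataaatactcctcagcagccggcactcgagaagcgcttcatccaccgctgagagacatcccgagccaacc
The match is a description of the letters in this window and not a test of a binding site.

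Complement and coagulation genes rose in 11 of 20 and fell in 2 (median 0.40). Masp1, a protease of the lectin pathway, had 10.4, 13.02 and 16.1 CPM in NOD hearts, against 0.390, 0.770 and 1.196 CPM in WSB hearts. The groups did not overlap and the log2 fold change was 4.11 ± 0.18 (adjusted p = 1.82e-29); the other strains averaged 5.21 CPM in B6 to 20.6 CPM in PWK, and WSB alone was outside. C4b, a component cleaved in the classical and lectin pathways, had 31.4, 48.3 and 93.0 CPM in NOD hearts, against 10.4, 12.9 and 15.3 CPM in WSB hearts (2.12 ± 0.31), again without overlap. Cfb of the alternative pathway was at 1.22 ± 0.37. Both members that fell act on the start of clotting, the tissue factor pathway inhibitor Tfpi at -1.16 ± 0.10 and tissue factor, F3, at -0.29 ± 0.095. Tfpi had 40.2, 46.1 and 52.4 CPM in NOD hearts, against 41.4, 108 and 121 CPM in WSB hearts, and WSB_1 was the low WSB library, at 41.4 CPM against 98.9 to 121 CPM in the other 7.

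Macrophage and monocyte markers rose in 6 of 20 and fell in 2, and 1 fell without WSB_1, as without NOD_5. Folr2, a folate receptor of resident macrophages, had 4.41, 4.98 and 5.36 CPM in NOD hearts, against 0.181, 0.499 and 0.725 CPM in WSB hearts (3.40 ± 0.23) with no overlap. Ly6c2, of inflammatory monocytes, was at 4.11 ± 0.25. Its near-identical copy Ly6c1, a surface antigen of capillary endothelium, averaged 67.2 CPM in NOD, where both genes summed to a mean of 71.3 CPM. Whether reads of Ly6c1 were counted to Ly6c2 was not tested. Cx3cr1, the fractalkine receptor, was at 0.94 ± 0.29. The scavenger receptor Cd163 fell, at -0.41 ± 0.15, and was not called without NOD_5 (adjusted p = 0.0570). Lyz1 fell at -1.05 ± 0.35 and was not called without WSB_1 (adjusted p = 0.0510); summed with its copy Lyz2 the value was 0.08 (adjusted p = 0.789). Of 10 tested neutrophil and mast cell markers, 4 rose, 1 fell and 5 were not called. The median log2 fold change over the 10 was -0.40, or -0.37 without WSB_1. The 14 members in the count table summed to 8.41 to 12.9 CPM in NOD and 13.8 to 20.99 CPM in WSB, lower in NOD with no overlap. Those that rose included the mast cell proteases Cpa3 at 2.39 ± 0.37, Tpsb2 at 1.63 ± 0.35 and Cma1 at 1.30 ± 0.38. Mmp9, the gelatinase of neutrophils, fell, with 0.357, 1.00 and 1.25 CPM in NOD hearts, against 2.93, 4.05 and 5.57 CPM in WSB hearts (-2.15 ± 0.41) and no overlap.

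Of 15 immediate early genes, 13 rose and none fell, with a median of 1.01, and the counts were the same without WSB_1. Fosb, an AP-1 subunit, had 1.85, 31.9 and 56.4 CPM in NOD hearts, against 1.03, 4.68 and 7.34 CPM in WSB hearts. NOD_1 and NOD_5 were within the WSB range, at 5.003 and 1.85 CPM, and the other 6 NOD libraries lay above every WSB library; the log2 fold change was 2.86 ± 0.77 (adjusted p = 0.00252). Nr4a1, an orphan nuclear receptor, had 38.8, 91.8 and 144 CPM in NOD hearts, against 13.1, 28.7 and 48.2 CPM in WSB hearts (1.70 ± 0.36), with NOD_5 again the lowest NOD library. Egr3, a zinc finger transcription factor, had 0.618, 1.66 and 2.15 CPM in NOD hearts, against 0, 0.358 and 0.530 CPM in WSB hearts (2.19 ± 0.44), with no overlap. The list summed to 383 CPM in NOD_5 and 449 CPM in NOD_1, 669 to 1209 CPM in the other 6 NOD libraries and 319 to 475 CPM in WSB. NOD_5 and NOD_1 thus lay within the WSB range.

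Of 15 heat shock and chaperone genes, 12 fell and none rose, with a median of -0.63, and without WSB_1 13 fell. Hspa1b, an inducible HSP70, had 13.8, 38.3 and 66.1 CPM in NOD hearts, against 81.3, 191 and 431 CPM in WSB hearts. Every NOD library lay below every WSB library, and the log2 fold change was -2.46 ± 0.69 (adjusted p = 0.00367). Its near-identical neighbour Hspa1a had 7.61, 23.3 and 40.0 CPM in NOD hearts, against 51.9, 116 and 237 CPM in WSB hearts (-2.48 ± 0.64), and the 2 genes summed gave -2.47 (adjusted p = 0.00235). Hsph1, an HSP110 that exchanges the nucleotide of HSP70, had 66.4, 80.8 and 115 CPM in NOD hearts, against 109, 226 and 321 CPM in WSB hearts (-1.40 ± 0.27, adjusted p = 2.67e-05). Its ranges overlapped only through WSB_1, the lowest WSB library at 109 CPM, since the other 7 WSB libraries held 198 to 321 CPM. The other strains averaged from 67.8 CPM in B6 to 137 CPM in PWK for Hsph1, so that WSB was above them and NOD within them, and for Hspa1b they averaged from 6.38 CPM in B6 to 136 CPM in PWK. The whole list summed to 5138 to 6221 CPM in NOD and 6911 to 8771 CPM in WSB, with no overlap.

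The promoters of these 3 genes are shown for the heat shock element, the site of heat shock factor, searched for as GAANNTTC, with N for any base, which reads the same on both strands. This motif lay in 2582 of the 32851 promoter windows (7.86%), and in 2442 of 27025 genes with a window. Among the heat shock and chaperone genes it lay in 9 of 16 windows, and in 8 of the 11 genes with a window. Here too, NOD and WSB sequences were not read. The windows are Hspa1a chr17:34972107-34972406, Hspa1b chr17:34959189-34959488 and Hsph1 chr5:149636266-149636565, all on the minus strand of GRCm38.p6 from RefSeq, and the match is in capitals.
Hspa1a: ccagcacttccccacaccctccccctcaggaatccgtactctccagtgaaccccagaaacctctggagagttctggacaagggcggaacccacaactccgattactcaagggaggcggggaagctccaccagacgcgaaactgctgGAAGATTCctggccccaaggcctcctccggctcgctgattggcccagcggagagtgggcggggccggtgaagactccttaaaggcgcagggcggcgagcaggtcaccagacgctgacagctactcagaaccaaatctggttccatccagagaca
Hspa1b: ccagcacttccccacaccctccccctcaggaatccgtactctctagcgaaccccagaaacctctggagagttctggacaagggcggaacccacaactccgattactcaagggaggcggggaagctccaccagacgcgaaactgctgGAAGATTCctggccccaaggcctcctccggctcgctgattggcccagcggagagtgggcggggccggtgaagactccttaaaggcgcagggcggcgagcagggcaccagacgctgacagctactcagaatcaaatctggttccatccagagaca
Hsph1: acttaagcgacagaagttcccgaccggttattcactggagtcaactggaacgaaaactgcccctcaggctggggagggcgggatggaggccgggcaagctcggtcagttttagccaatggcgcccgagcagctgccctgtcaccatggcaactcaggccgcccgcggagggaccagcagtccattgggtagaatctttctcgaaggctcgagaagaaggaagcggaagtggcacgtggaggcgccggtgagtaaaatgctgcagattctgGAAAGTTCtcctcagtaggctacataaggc
The windows of Hspa1a and Hspa1b carry the same match at the same place, and that of Hsph1 carries its match closer to the 3′ end.

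**Figure D5:**
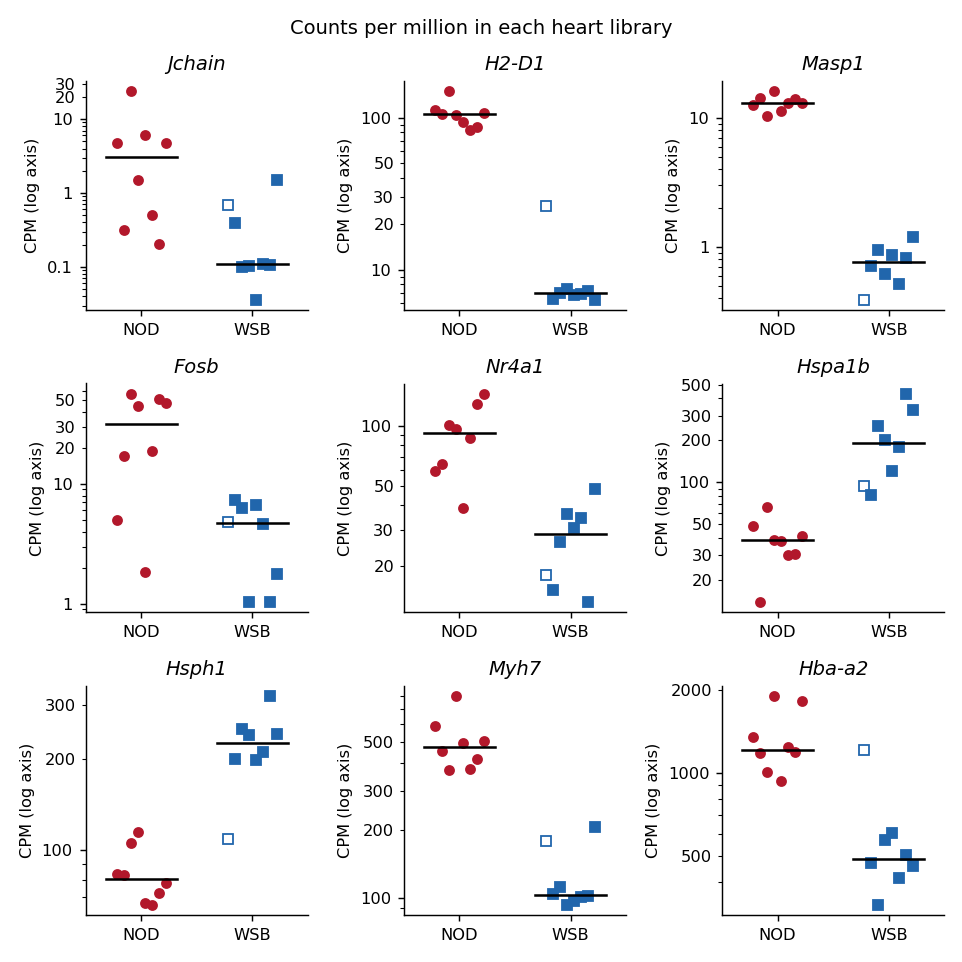
CPM of 9 genes in each library on log axes, with NOD (red circles) left of WSB (blue squares), WSB_1 as an open square and medians as bars. NOD medians are higher for the genes of plasma cells (Jchain), MHC class I, complement, immediate early response, Myh7 and haemoglobin, and lower for Hspa1b and Hsph1. The ranges of the strains overlap for Jchain, Fosb, Nr4a1, Hsph1 and Hba-a2. NOD_3 is the highest point of Jchain at 23.6 CPM.

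Of 14 tested genes that mark load on the heart wall or the fetal programme, 6 rose and 3 fell, with a median of 0.38. Myh7, the slow myosin heavy chain of the fetal mouse ventricle, had 374, 472 and 796 CPM in NOD hearts, against 93.3, 103 and 206 CPM in WSB hearts. The groups did not overlap, and the log2 fold change was 2.01 ± 0.34 (adjusted p = 3.14e-06). Myh7 shares long stretches with Myh6, whose counts are so much larger that the sum of both gave -0.01 (adjusted p = 0.971). Acta1, skeletal alpha-actin, had 346, 559 and 873 CPM in NOD hearts, against 127, 214 and 441 CPM in WSB hearts (1.30 ± 0.24), and Ankrd1, a stretch-responsive nuclear and sarcomeric protein, had 1060.1, 1306 and 2022 CPM in NOD hearts, against 569.5, 731 and 1173 CPM in WSB hearts (0.89 ± 0.17). The members that fell were Tuba8, a tubulin, at -0.54 ± 0.14, the LIM protein Fhl2 at -0.39 ± 0.13 and the actin crosslinker Actn1 at -0.22 ± 0.081, the last not called without WSB_1. Atrial genes rose in 6 of 10 with none lower. Myl4, the atrial essential light chain, had 229, 301 and 439.9 CPM in NOD hearts, against 86.4, 175 and 263 CPM in WSB hearts (0.83 ± 0.20). Upk3b, which also marks mesothelium, was at 0.79 ± 0.19. In Myl4 and Upk3b only WSB_1 overlapped with the NOD libraries.

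Of 20 heart muscle genes, 3 rose and 2 fell, and without WSB_1 5 rose and 5 fell, beside 36.5% of all tested genes called with all libraries and 38.5% without WSB_1. Csrp3, a Z-disc LIM protein, had 558, 695 and 826 CPM in NOD hearts, against 449, 474 and 489 CPM in WSB hearts (0.56 ± 0.094), Mybpc3, the cardiac myosin-binding protein, was at 0.40 ± 0.082 and the small chaperone Hspb7 at 0.29 ± 0.098, or 0.18 without WSB_1. Tpm1, a tropomyosin, fell at -0.37 ± 0.065 and Ckm, muscle creatine kinase, at -0.30 ± 0.068. Among 20 calcium handling genes, 4 rose and 2 fell, and without WSB_1 5 rose and 5 fell. Casq2, the calcium store protein of the sarcoplasmic reticulum, had 616, 685 and 784 CPM in NOD hearts, against 390.4, 1236 and 1339 CPM in WSB hearts (-0.72 ± 0.12). WSB_1 at 390.4 CPM was the one WSB library below the NOD range, and without it the log2 fold change was -0.85 (adjusted p = 1.12e-14). Cacna1c, the L-type calcium channel, had 146, 155 and 175 CPM in NOD hearts, against 195, 206 and 237 CPM in WSB hearts (-0.43 ± 0.068) with no overlap. Sln, a small inhibitor of the calcium pump best known from atria, rose at 0.73 ± 0.18, the inositol trisphosphate receptor Itpr2 at 0.40 ± 0.077 and Hrc, a calcium-binding protein of the store, at 0.30 ± 0.056.

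Among 26 ion channel genes, 3 rose and 5 fell, and without WSB_1 3 rose and 10 fell. Of all tested genes, 18.2% were called higher and 18.4% lower with all libraries, and 20% and 18.5% without WSB_1. The potassium channel Kcnj3 had 88.1, 97.2 and 110.5 CPM in NOD hearts, against 27.8, 66.4 and 88.0 CPM in WSB hearts (0.61 ± 0.12), and Kcna4 rose at 1.06 ± 0.23. Hcn2, a pacemaker channel, fell at -0.42 ± 0.15. Kcna5, which carries an ultrarapid potassium current, fell at -0.74 ± 0.17, and Kcnj8, the pore of an ATP-sensitive channel that also marks pericytes, at -0.53 ± 0.084.

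Of 23 fatty acid oxidation genes, 4 rose and 2 fell (median 0.09), and without WSB_1 3 rose and 4 fell. With all libraries, neither share was above the 18.2% higher and 18.4% lower of all tested genes. Hadh, which oxidises hydroxyacyl-CoA, had 128, 159 and 208 CPM in NOD hearts, against 185, 449 and 532 CPM in WSB hearts (-1.38 ± 0.10, adjusted p = 6.52e-18). The WSB libraries other than WSB_1, at 407 to 532 CPM, all lay above the NOD libraries. The NOD mean of 165 ± 28.1 CPM (SD, n = 8) was below the means of the other strains, 414 CPM in AJ to 508 CPM in B6. Acss1, which makes acetyl-CoA from acetate in mitochondria, fell at -0.63 ± 0.13. Cpt1a, which admits long-chain fatty acids to mitochondria, had 57.8, 67.1 and 73.5 CPM in NOD hearts, against 41.0, 44.3 and 51.7 CPM in WSB hearts (0.56 ± 0.073) with no overlap, and the hydratase Echs1 rose at 0.48 ± 0.085. Among 19 tested PPAR-alpha targets, 5 rose and 1 fell, and without WSB_1 5 rose and 3 fell. Those that rose included Cyp4b1 at 0.73 ± 0.12 and the lipid droplet protein Plin2 at 0.62 ± 0.097. Acot1, a thioesterase, fell at -1.28 ± 0.30, or -0.50 when summed with its copy Acot2 (adjusted p = 0.0355).

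Of 25 genes of glucose uptake and glycolysis, 4 rose and 3 fell, and without WSB_1 3 rose and 4 fell. With all libraries, both shares were below the 18.2% higher and 18.4% lower of all tested genes. Pygb, a glycogen phosphorylase, had 171, 188 and 202 CPM in NOD hearts, against 80.9, 410.4 and 433 CPM in WSB hearts (-0.96 ± 0.13), and WSB_1 at 80.9 CPM was the only WSB library below the NOD range, the others holding 347 to 433 CPM. Pfkp, a phosphofructokinase, rose at 0.44 ± 0.12, and Aldoa, an aldolase, fell at -0.19 ± 0.050. Of 25 genes of the TCA cycle and pyruvate entry, 4 rose and 1 fell, and without WSB_1 4 rose and 4 fell. These shares too were below those of all tested genes. Suclg2, the GTP-forming subunit of succinyl-CoA ligase, had 90.4, 97.4 and 104 CPM in NOD hearts, against 64.2, 207 and 224 CPM in WSB hearts (-0.97 ± 0.099), with WSB_1 again the low WSB library at 64.2 CPM. Mpc1, the pyruvate carrier, rose at 0.24 ± 0.076 and the succinate dehydrogenase subunit Sdhc at 0.19 ± 0.061, or 0.12 without WSB_1. In insulin and IGF signalling, 3 of 21 rose and 5 fell, beside 18.2% higher and 18.4% lower among all tested genes. The adaptor Irs1 fell, with 54.9, 61.7 and 72.4 CPM in NOD hearts, against 13.5, 123 and 196 CPM in WSB hearts (-0.92 ± 0.24), while Irs2 was at 0.83 ± 0.33 and not called without WSB_1 or without NOD_3. Grb14, which inhibits the insulin receptor, had 116, 133 and 162 CPM in NOD hearts, against 40.0, 83.6 and 103 CPM in WSB hearts (0.78 ± 0.10) with no overlap.

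Transcripts of the mitochondrial genome took a smaller share of the NOD libraries, 19.5 ± 0.878% of counts against 22.4 ± 1.76% in WSB (mean ± SD, n = 8 each). The difference of -2.91 percentage points had p = 0.00109 in a two-sided exact permutation test over 12870 arrangements of the 16 libraries, and -2.51 with p = 0.00186 without WSB_1. The NOD libraries ran from 18.5% to 21.1% and the WSB libraries from 19.6% to 25.2%, so the ranges overlapped. Of 13 protein-coding mitochondrial genes, 8 fell and none rose (median -0.30). mt-Nd1, a complex I subunit, had 11162, 12237 and 13153 CPM in NOD hearts, against 14857, 16218 and 19313 CPM in WSB hearts (-0.47 ± 0.070) with no overlap, mt-Co2 of cytochrome oxidase was at -0.54 ± 0.13 and mt-Nd6 at -0.46 ± 0.14, the last not called without WSB_1. Calls among nuclear-encoded genes of the respiratory chain depended on WSB_1. With all libraries, 1 of 40 rose and 12 fell, and without it 2 rose and 3 fell. Without NOD_3, 3 rose and 8 fell. Ndufa2, a complex I subunit, had 53.6 to 86.2 CPM in NOD hearts, against 221 CPM in WSB_1 and 61.6 to 84.4 CPM in the other WSB hearts. Its log2 fold change was -0.44 ± 0.13 with all libraries and -0.10 without WSB_1 (adjusted p = 0.245). Cox6c of cytochrome oxidase was at -0.39 ± 0.091 and still called without WSB_1 (-0.20).

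Of 32 genes against oxidative stress, 10 were called higher and 5 lower, and 10 and 7 without WSB_1. Nqo1, a quinone reductase, had 34.4, 41.9 and 47.8 CPM in NOD hearts, against 10.8, 19.3 and 22.3 CPM in WSB hearts (1.14 ± 0.093) with no overlap, and the glutathione transferases Gstm2 and Gsta4 rose at 0.52 ± 0.10 and 0.46 ± 0.11. Gstk1, a mitochondrial and peroxisomal transferase, fell at -0.53 ± 0.068, Gsta3 at -0.74 ± 0.20 and the superoxide dismutase Sod1 at -0.46 ± 0.092. Without WSB_1 these last 2 were at -0.43 and -0.27. Nnt, the mitochondrial transhydrogenase that is mutated in a common B6 substrain, had 754, 808 and 896 CPM in NOD hearts, against 118, 661 and 721 CPM in WSB hearts (0.44 ± 0.13, adjusted p = 0.00763). The groups did not overlap; WSB_1 held the lowest value, and without it the log2 fold change was 0.28. Glo1, which detoxifies methylglyoxal, had 68.8, 73.1 and 82.0 CPM in NOD hearts, against 46.7, 79.1 and 89.8 CPM in WSB hearts, a log2 fold change of -0.05 ± 0.066 that was not called (adjusted p = 0.583); without WSB_1 it was -0.13 (adjusted p = 0.0247).

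Of 12 tested red cell genes, 10 rose and 1 fell (median 1.18). Hba-a2, an alpha-globin gene, had 929.8, 1209 and 1893 CPM in NOD hearts, against 332, 486 and 1212 CPM in WSB hearts (1.22 ± 0.21, adjusted p = 4.30e-06), and its copy Hba-a1 was at 1.24 ± 0.24. The WSB libraries other than WSB_1 had 332 to 602 CPM of Hba-a2, below all NOD libraries. Hbb-bt, a beta-globin gene, was at 2.31 ± 0.28, or 1.09 when summed with its copy Hbb-bs. Epb42 of the red cell skeleton was at 2.57 ± 0.64. Car2, a carbonic anhydrase, was the member that fell, at -0.43 ± 0.13. The list summed to 2842 to 5916 CPM in NOD, against 4076 CPM in WSB_1 and 1100.5 to 1966 CPM in the other WSB libraries.

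Of 14 adipocyte and brown fat genes, 7 rose and none fell (median 0.81), and without WSB_1 10 rose (median 1.91). Plin1, the perilipin of fat cells, had 1.04, 4.68 and 16.8 CPM in NOD hearts, against 0.0719, 0.447 and 2.49 CPM in WSB hearts (2.93 ± 0.67) with overlap. Ucp1, the uncoupling protein of brown fat, was at 9.81, 3.75 and 4.24 CPM in NOD_1, NOD_2 and NOD_3 and at or under 0.551 CPM in the other 5. It totalled 676 counts in NOD and 2 in WSB, a ratio of depth-scaled counts of 279 with a 95% interval of 77.2 to 2303 that covers counting error only. Lep, the hormone leptin, totalled 126 counts in NOD and 3 in WSB, a ratio of 34.7 (95% interval 11.9 to 168). WSB_1 had the highest sum of the list among all 16 libraries, 1648 CPM, against 819 to 1117 CPM in NOD and 706 to 956 CPM in the other WSB libraries.

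Of 20 endothelial markers, 11 fell and 3 rose (median -0.27), and without WSB_1 8 fell and 3 rose (median -0.13). WSB_1 had the highest sum, 3250.2 CPM, against 1586 to 1899 CPM in NOD and 1631 to 2037 CPM in the other WSB hearts. Plvap, a protein of endothelial fenestrae, had 8.71, 10.5 and 13.02 CPM in NOD hearts, against 11.6, 17.3 and 40.0 CPM in WSB hearts (-0.83 ± 0.16). Robo4, a guidance receptor of endothelium, rose at 0.56 ± 0.10 and the tight junction protein Cldn5 at 0.49 ± 0.18. Ly6c1, a surface antigen of capillary endothelium, was the extreme case, with 55.5 to 72.6 CPM in NOD hearts and no count in 7 of 8 WSB hearts. It totalled 19075 counts in NOD and 2 in WSB, a ratio of 7871 (95% interval 2179 to 64994). The other strains averaged from 50.2 CPM in Cast to 79.2 CPM in NZO. Its near-identical copy Ly6a fell, at -0.82 ± 0.20, or -0.41 without WSB_1. The sum of Ly6c1, Ly6c2 and Ly6a gave 0.46 (adjusted p = 0.0476), and 0.86 without WSB_1 (adjusted p = 1.41e-06). Whether reads were split between the copies was not tested. Ly6e, another member of the family, fell at -0.87 ± 0.14.

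Pericyte and smooth muscle markers fell in 6 of 15 with none higher, and without WSB_1 5 fell and 1 rose. Rgs5, a regulator of G protein signalling in pericytes, had 418, 465 and 499 CPM in NOD hearts, against 583, 619.9 and 779.5 CPM in WSB hearts (-0.49 ± 0.057) with no overlap. Of 24 fibrillar collagen and fibroblast genes, 6 rose and 4 fell, near the 18.2% and 18.4% of all tested genes. Postn, a matricellular protein of activated fibroblasts, had 33.0, 44.6 and 62.4 CPM in NOD hearts, against 15.6, 18.4 and 24.6 CPM in WSB hearts (1.25 ± 0.15) with no overlap, Fn1, fibronectin, was at 1.05 ± 0.23 and Pi16 at 0.98 ± 0.17. Ctsk, the collagen-cleaving cathepsin K, fell, with 0, 0.126 and 0.354 CPM in NOD hearts, against 2.32, 3.11 and 3.68 CPM in WSB hearts (-4.47 ± 0.34, adjusted p = 1.66e-17) and no overlap, and the collagen crosslinker Lox fell at -0.68 ± 0.23. In the basement membrane, 2 of 18 rose, the laminin chains Lama2 at 0.39 ± 0.12 (0.25 without WSB_1) and Lamb2 at 0.17 ± 0.049, and 3 fell, with Lama4 at -0.37 ± 0.062, Lama5 at -0.36 ± 0.12 and the proteoglycan Hspg2 at -0.38 ± 0.088.

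Cwc22 (chr2:77881159-77946375, minus strand), a splicing factor in a segment known to be multiplied in WSB, was left out of the ranking for its near-identical copies. It had 9.73, 10.7 and 11.7 CPM in NOD hearts, against 634, 705 and 1141 CPM in WSB hearts. The NOD libraries lay close together, WSB_1 was the highest of all, and the log2 fold change was -6.12 ± 0.11 (adjusted p = 1.25e-50). The other strains averaged from 9.33 CPM in PWK to 16.3 CPM in Cast, so that WSB alone was outside.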

How the data were processed

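RNA-seq of hearts from 8 mouse strains gave 63 libraries, grouped by the strain name in the titles. The authors deposited estimated counts per gene for 19220 genes, of which 18.4% of values were not whole numbers (tolerance 1e-06), and a matrix of variance-stabilised log2 values whose value at 0 counts was 6.55, which served an alternative fit. Per the submitters' processing notes the build was GRCm38 and DESeq2 was used; the sources used here name no aligner, counter or strand setting. Counts were rounded and fitted over all 63 libraries with edgeR 4.0.16 (R 4.3.3), with TMM scaling, a minimum count of 10 and the robust quasi-likelihood test, and the contrast was NOD minus WSB. Standard errors were taken from the log2 fold change and its F statistic. Of the genes, 16425 passed the filter and 2795 did not; gene positions are those of the deposited annotation. Near-identical copies are transcripts aligned by minimap2 at 95% identity or more over at least 50% of the shorter one.

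In simulated counts with the same design, 80% of changes of 0.5 and 96% of changes of 1 on the log2 scale were recovered. This was over 16194 genes, with 6 false calls among 15994 unchanged genes. The simulation changed 100 genes at each size, drawn at an average level of 1 or more on the log2 CPM scale. All other genes had the same mean in every strain, and no library was set apart as WSB_1 is. These rates may therefore not carry over to the real libraries. Genes were named where the strains did not overlap, as the 8 largest changes per direction at an average level of 2 or more and the 6 largest at 6 or more on the log2 CPM scale, up to 3 called members per direction of each of 40 gene lists, and 6 genes always. Some genes that these rules name are not reported here. The comparison, the lists and these rules were chosen with earlier results of these data known. Alternatives were the 16 libraries alone, a replicate block, DESeq2 1.42.0 (size factors and Wald test), limma 3.58.1 on the variance-stabilised values, no filter, leaving out the mitochondrial genes and leaving out WSB_1; leaving out NOD_3 or NOD_5 and summing copies were added after seeing the data.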

Additional observations from a re-analysis of the deposited data

Results flagged for a closer look

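The highest or lowest library of a strain lay apart from the other 7 by more than Dixon's 95% critical value of 0.526 in 27 of 92 groups of 8 libraries tested. For a single group chance gives about 1 in 20, but the groups share the same 16 libraries and are not independent. In 20 of the 27 that library was WSB_1.

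In NOD_3 the flagged values were the highest NOD values of H2-D1, 149 CPM, and of the summed MHC class I genes, 702 CPM, MHC class II genes, 208 CPM, and B and plasma cell markers, 305 CPM, and the lowest value of Hrasls, 1.90 CPM. In WSB_9 they were the highest WSB values of Tmprss13, 4.59 CPM, and Bcam, 283 CPM.

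In WSB_1 the values far above the other WSB libraries were 26.3 CPM of H2-D1, 306 CPM of Ano10, 34.2 CPM of Cit, 1141 CPM of Cwc22, 0.0558 CPM of Ly6c1, 851 CPM of Hba-a1 and 1212 CPM of Hba-a2. Its summed levels were also high for 5 lists, at 1648 CPM for adipocyte and brown fat genes, 623 CPM for MHC class I, 50.1 CPM for MHC class II, 4076 CPM for red cell genes and 3250.2 CPM for endothelial markers. The values far below the other WSB libraries were 146 CPM of Hopx, 36.4 CPM of Creg1, 15.6 CPM of Aldh4a1, 45.4 CPM of Mtus2, 15.3 CPM of Rragd, 50.6 CPM of Mrpl3, 118 CPM of Nnt and 46.7 CPM of Glo1. Ly6c1 was flagged in WSB_1 too, at 0.0558 CPM, which is only 2 counts. With 0 in the other 7 WSB libraries any count is flagged, so that flag carries no weight. What sets WSB_1 apart was not tested.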

How the results depend on the processing

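No named gene changed direction under the alternatives run, apart from 3 when summed with near-identical copies: Myh7 with Myh6 at -0.01, Lyz1 with Lyz2 at 0.08 and Ly6a with Ly6c1 at 0.41 (adjusted p = 0.971, 0.789 and 0.0777 in edgeR). Without WSB_1 these 3 sums were at -0.12, 0.12 and 0.82 (adjusted p = 0.0362, 0.700 and 4.52e-06 in edgeR). Over all tested genes, 1 was called in opposite directions with and without WSB_1. The balance of higher and lower members turned in 10 lists under some setting. Without WSB_1, fatty acid oxidation and glycolysis each had 3 higher and 4 lower, and without NOD_5, T and NK cell markers had 2 and 3 and cell cycle genes 1 and 4. In the 16 libraries alone, neutrophil and mast cell markers had 2 and 3, oxidative stress genes 5 and 6 and TCA cycle genes 0 and 1. With the replicate block, PPAR-alpha targets had 3 and 4, insulin and IGF signalling 2 and 1, neutrophil and mast cell markers 1 and 2, TCA cycle genes 0 and 1, and ion channels 4 and 3; limma gave 6 and 4 for the channels. In a fit of the 16 libraries alone, 3978 genes were called, 1859 of them lower in NOD, and the lists held 1 lower respiratory chain gene, 4 higher MHC class II genes, 7 higher B cell markers and 5 lower endothelial markers; of all 80 list counts, 21 moved by over 1.5 times, among them T and NK cell markers (1 higher), smooth muscle markers (3 lower) and glucocorticoid-induced genes (4 lower). With the replicate number as a block in those 16 libraries, 3212 genes were called, 1834 higher and 1378 lower, with 392 at least 2-fold lower; the lists held 0 lower respiratory chain genes, 3 lower mitochondrial genes, 3 higher class II genes, 6 higher B cell markers and 4 lower endothelial markers, and 33 of 80 list counts moved. Without WSB_1, 15 moved. The labels do not say that a number marks a shared litter or batch, and whether the numbers pair the libraries is not settled: deviations of all 7 same-numbered pairs correlated positively, at 0.054 to 0.182, 6 above 0.1, and 4 correlated best with their own number, a hint from the data and not the design. The block left the mitochondrial share at -3.19 percentage points (p = 0.0156 in an exact permutation test). limma on the variance-stabilised values, which compress low counts, called 151 genes at least 2-fold higher and 66 lower. With mitochondrial genes left out, 0 of them could be called. Leaving out WSB_1, NOD_3 or NOD_5 gave 3 to 8 lower respiratory chain genes, against 12. Of the genes named, 28 lost their call in the 16 libraries alone, 46 with the block, 18 without WSB_1, 9 without NOD_3 and 11 without NOD_5; the cause was not tested. At these depths markers of rare cells rest on few counts, and Cxcl10 and Mx1 stayed below 1.5 CPM.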

Other observations

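The circadian clock list had 4 members lower and 1 higher in NOD among 18. Per2, a repressor of the clock, had 3.21, 6.27 and 6.98 CPM in NOD hearts, against 4.48, 18.7 and 47.3 CPM in WSB hearts (-1.84 ± 0.42). The output factor Hlf was at -0.87 ± 0.22 and the repressor Nfil3 at -0.82 ± 0.22, while Bhlhe40 rose at 0.62 ± 0.14. Among 21 tested genes of cholesterol and fatty acid synthesis, 3 rose and 2 fell. Scd1, the stearoyl-CoA desaturase, had 50.6, 120.2 and 367 CPM in NOD hearts, against 30.5, 39.5 and 116 CPM in WSB hearts (1.64 ± 0.57) and was not called without NOD_3 (1.36, adjusted p = 0.0602). Scd2 was at 0.47 ± 0.13, while Cyp51 fell at -0.58 ± 0.12; 1 fell without NOD_3, as without NOD_5. Klf9 was the one glucocorticoid-induced gene of 13 that was called, at -0.35 ± 0.11, and it was not called without WSB_1.

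Cell cycle genes, 7 of 16 higher and 3 lower, rested on NOD_5. They summed to 163 CPM in that library, 52.3 to 67.5 CPM in the other NOD libraries and 59.1 to 70.3 CPM in WSB. Without NOD_5, 1 member rose, and Birc5 (0.70, adjusted p = 0.0585) and Top2a (0.53, adjusted p = 0.159) were not called. NOD_5 was also the library with the T and NK cell sum of 206 CPM, against 5.42 to 23.7 CPM in the other NOD libraries and 8.99 to 27.1 CPM in WSB. The members that fell were replication genes, Mcm2 at -0.76 ± 0.16, Mcm3 at -0.53 ± 0.11 and Tyms at -0.69 ± 0.15.

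Genes of other tissues were low in all hearts. Skeletal muscle markers summed to 119 to 163 CPM in NOD and 68.6 to 108 CPM in WSB, with no overlap. Of 7 tested, 3 rose, none fell and 4 were not called. Their median log2 fold change was 0.0085, or 0.29 without WSB_1. Among those that rose, Atp2a1, the calcium pump of fast fibres, was at 2.55 ± 0.38. Of 6 tested liver markers, 4 rose and 1 fell; 2 rose without NOD_3, as without NOD_5, and none fell without WSB_1 or without NOD_5; Ttr, which carries thyroid hormone, had 0.145, 0.280 and 2.53 CPM in NOD hearts, against 0, 0.106 and 0.157 CPM in WSB hearts (2.55 ± 0.63). Cela1, the 1 tested gene of the pancreas and islet list, was at 1.98 ± 0.30. In the Schwann cell and neuron list, 2 of 14 rose and 2 fell, and 1 rose without NOD_3, as without NOD_5, with Snap25 of synaptic vesicle fusion at 2.09 ± 0.84.

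Called genes were spread over the genome. On chromosome 17, which carries the MHC, 41.9% of tested genes were called, on the X 27.3% and on the mitochondrial genome 66.7% (10 of 15). Among 235 bins of 10 Mb with at least 20 tested genes, the share called ran from 9.68% to 73.0%, with a median of 37.3%.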
